A study of Mus musculus with 12 samples.

Results

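The collagen chain genes are the 44 genes of the array whose symbol has the form of a collagen alpha chain, out of 19937 genes tested. They were taken from 46 rows of the deposited value table that carry exactly 1 such symbol; Col6a5 and Col6a6 have 2 rows each, and each of these genes was read from its row of highest mean. The genes fall into 11 fibrillar chains, 6 basement membrane chains, 6 type VI chains and 21 others, a grouping taken from the known assembly of the proteins and not from these values. They were measured in white adipose tissue (WAT) of male mice aged 18 weeks, on 12 one-colour Affymetrix whole-transcript arrays. The study set mice with a knockout (KO) of Ahnak, the gene of a giant membrane-associated scaffold protein, beside wild-type (WT) controls, and gave each genotype either regular chow or, for 12 weeks, a high fat diet (HFD) of 60% fat, 20% carbohydrate and 20% protein. There are 3 arrays in each of the 4 groups: both genotypes on chow and both on HFD. The sources used here do not name the knockout allele, the strain, the depot the fat came from or the time of day it was taken. Nothing in the labels says that the numbered replicates are separate mice, so a p-value here measures the spread between arrays, which may be technical.

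Collagens are the main structural proteins of the extracellular matrix. Each molecule is built from 3 alpha chains wound into a triple helix, and the classes differ in what they assemble into: fibrillar collagens form the tensile fibres of the stroma, type IV collagen forms the sheet of the basement membrane that wraps each fat cell and vessel, and type VI collagen forms beaded filaments between the fibres and that sheet. In fat, fibroblast-like stromal cells make most of the fibrillar collagen, while adipocytes and endothelial cells also make basement membrane chains, and the matrix is known to be remodelled as the tissue expands under a high fat diet.

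Values are log2 intensities, so a difference of 1 is a doubling, and each change is a difference of group means ± the standard error (SE) of a limma fit to all 12 arrays. A gene passed where its Benjamini-Hochberg adjusted p over all 19937 genes was under 0.05. The array medians lay between 5.78 and 5.92, arrays of a group correlated across rows at 0.987 to 0.994, and no array pair was identical. Where 3 values are given for a group, they are replicates 1, 2 and 3. The table has no detection calls, so a low value cannot be set against background. Levels of different probe sets were not read as relative amounts of RNA. They were used to choose 1 row per gene and to group genes by mean intensity. On chow Ahnak, the targeted gene, lay between 9.94 and 10.08 in WT and between 9.27 and 9.42 in KO; on HFD it lay between 9.68 and 10.27 in WT and between 9.40 and 9.58 in KO. The genotypes did not overlap on either diet, with changes of -0.69 ± 0.13 on chow (adjusted p = 0.379) and -0.52 ± 0.13 on HFD (adjusted p = 0.0207). Its row still gave a signal in KO, and the sources used here do not say whether its probes lie in the targeted stretch. Of the collagen genes, 15 had a mean of 8 or more over the 12 arrays and 29 a lower one; the limit of 8 was chosen after the values were seen.

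The promoters of 5 collagen genes or gene pairs are shown because the results below turn on these genes: Col1a2, Col6a3 and Col8a1, which were lower in KO on HFD, Col6a6, which was higher, and the pair Col4a1 and Col4a2, which moved by nearly equal amounts in every comparison. The sequences are from RefSeq on mouse build GRCm38.p6, 5′ to 3′ on the strand named, and hold up to 250 bases before the listed start site, less any base inside a RefSeq gene; the short stretch of the type IV pair is the exception and lies within both genes. Capitals mark matches to 4 motifs, searched on both strands. The TATA box, which positions the start of transcription, was searched as TATAAA. The CCAAT box, bound by the factor NF-Y, was searched by the letters of its name. The GC box, bound by SP1 and its relatives, was searched as GGGCGG. The SMAD element, which SMAD proteins of the TGF-beta pathway can bind, was searched as CAGACA. None of these motifs contains another.
Col1a2, chr6:4505368-4505617, plus strand: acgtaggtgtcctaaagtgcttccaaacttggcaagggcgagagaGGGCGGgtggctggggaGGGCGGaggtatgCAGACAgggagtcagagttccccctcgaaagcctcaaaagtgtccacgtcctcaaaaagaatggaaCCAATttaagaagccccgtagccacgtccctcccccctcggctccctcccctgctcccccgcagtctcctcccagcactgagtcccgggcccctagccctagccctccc
Col6a3, chr1:90844002-90844221, minus strand: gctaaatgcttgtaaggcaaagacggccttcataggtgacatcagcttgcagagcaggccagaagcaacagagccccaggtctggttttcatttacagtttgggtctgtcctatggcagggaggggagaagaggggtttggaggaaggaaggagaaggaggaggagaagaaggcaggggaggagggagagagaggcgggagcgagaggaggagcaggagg
Col8a1, chr16:57754738-57754987, minus strand: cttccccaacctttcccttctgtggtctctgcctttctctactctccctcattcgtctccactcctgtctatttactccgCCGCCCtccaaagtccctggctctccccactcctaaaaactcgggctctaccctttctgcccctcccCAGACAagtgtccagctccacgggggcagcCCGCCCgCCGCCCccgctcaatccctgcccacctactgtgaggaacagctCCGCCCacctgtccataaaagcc
Col6a6, chr9:105828247-105828335, minus strand: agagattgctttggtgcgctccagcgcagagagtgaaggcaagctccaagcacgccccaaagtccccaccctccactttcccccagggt
Between the starts of Col4a2 and Col4a1, chr8:11312805-11312826, plus strand: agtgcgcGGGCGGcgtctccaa
The Col1a2 stretch holds 4 matches: a pair of GC boxes, 1 SMAD element and 1 CCAAT box. The Col8a1 stretch holds 5, of which 4 are GC boxes on the other strand and 1 is a SMAD element. The Col6a3 stretch and the 89 bases shown for Col6a6 hold none of these letters; the full 250 bases before the Col6a6 start, part of which lie inside a RefSeq gene, do hold a GC box and count as such below. Col4a1 and Col4a2, the chains of the common type IV molecule, are transcribed away from each other, and the 22 bases shown lie between their listed starts and hold 1 GC box. Windows were found for 35 of the 44 genes, 38 windows in all, and each motif was counted in the 250 bases before every start of the table. A GC box stood in 57.89% of the collagen windows and in 32.74% of all 32851 windows, a SMAD element in 23.68% and 17.13%, a CCAAT box in 34.21% and 33.85%, and a TATA box in 13.16% and 12.37%. The median GC content was 59% in the collagen windows and 52.4% in all windows, which bears on the count of GC boxes. These matches are a description of letters and are not tested sites.

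The chow arrays address whether collagen expression differs between the genotypes without the fat load. No collagen gene passed: limma called 0 of 44, and 0% of all genes passed in this comparison. At an unadjusted p under 0.05 there were 0 collagen genes (0%, against 5.6% of all genes). The lowest adjusted p was 0.891, for Col14a1 (0.33 ± 0.15), a fibril-associated collagen. Changes ran from -0.75 to 0.33, with a median of 0.02 over the 44 genes and 0.01 over all genes. The arrays of KO and WT did not overlap for 2 collagen genes that were higher in KO (4.55%, against 5.79% of all genes), Col14a1 and Col2a1. They did not overlap for 3 that were lower (6.82%, against 5.74% of all genes), Col4a1, Col4a2 and Col6a5. The shares of collagen genes with separate arrays were thus close to those of all genes.

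The main chains of adipose matrix gave these chow differences between genotypes. The type I chains, which form the bulk of fibrillar collagen, gave 0.12 ± 0.18 for Col1a1 and -0.05 ± 0.17 for Col1a2. The other fibrillar chains lay between -0.08 for Col11a2 and 0.16 for Col3a1, among them the type V chains Col5a1 (0.11 ± 0.10), Col5a2 (0.12 ± 0.18) and Col5a3 (-0.01 ± 0.22). Col2a1, the cartilage chain with separate arrays, gave 0.14 ± 0.08 (adjusted p = 0.919). Col4a1 (-0.19 ± 0.13, adjusted p = 0.945) and Col4a2 (-0.23 ± 0.11, adjusted p = 0.898) had 3 KO arrays that all lay under the WT arrays. The other type IV chains overlapped, at 0.05 ± 0.12 for Col4a3, -0.09 ± 0.13 for Col4a4, -0.05 ± 0.12 for Col4a5 and -0.17 ± 0.17 for Col4a6. Col6a1, Col6a2 and Col6a3, the chains of the common type VI molecule, gave 0.07, 0.05 and 0.03. Of the alternative type VI chains, Col6a4 gave 0.12 ± 0.10 and Col6a6 -0.18 ± 0.09 (adjusted p = 0.898). The multiplexins gave -0.01 ± 0.18 for Col15a1 and -0.07 ± 0.08 for Col18a1. The widest change of any member, that of Col6a5, came with the widest error (-0.75 ± 0.42, 95% confidence interval -1.66 to 0.17). Col6a5 read 9.84, 9.73 and 9.40 on the WT and 9.23, 8.17 and 9.33 on the KO arrays of chow-fed mice, and 7.91, 9.54 and 9.13 on the WT and 9.37, 8.54 and 8.51 on the KO arrays of the fat-fed. Within WT on HFD alone it ran from 7.91 to 9.54, and its second row also had its highest group mean in WT on chow (9.11). The median SE of the 44 chow differences was 0.11, and with 3 arrays a group a p over the threshold does not show that the genotypes were alike.

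**Figure D1:**
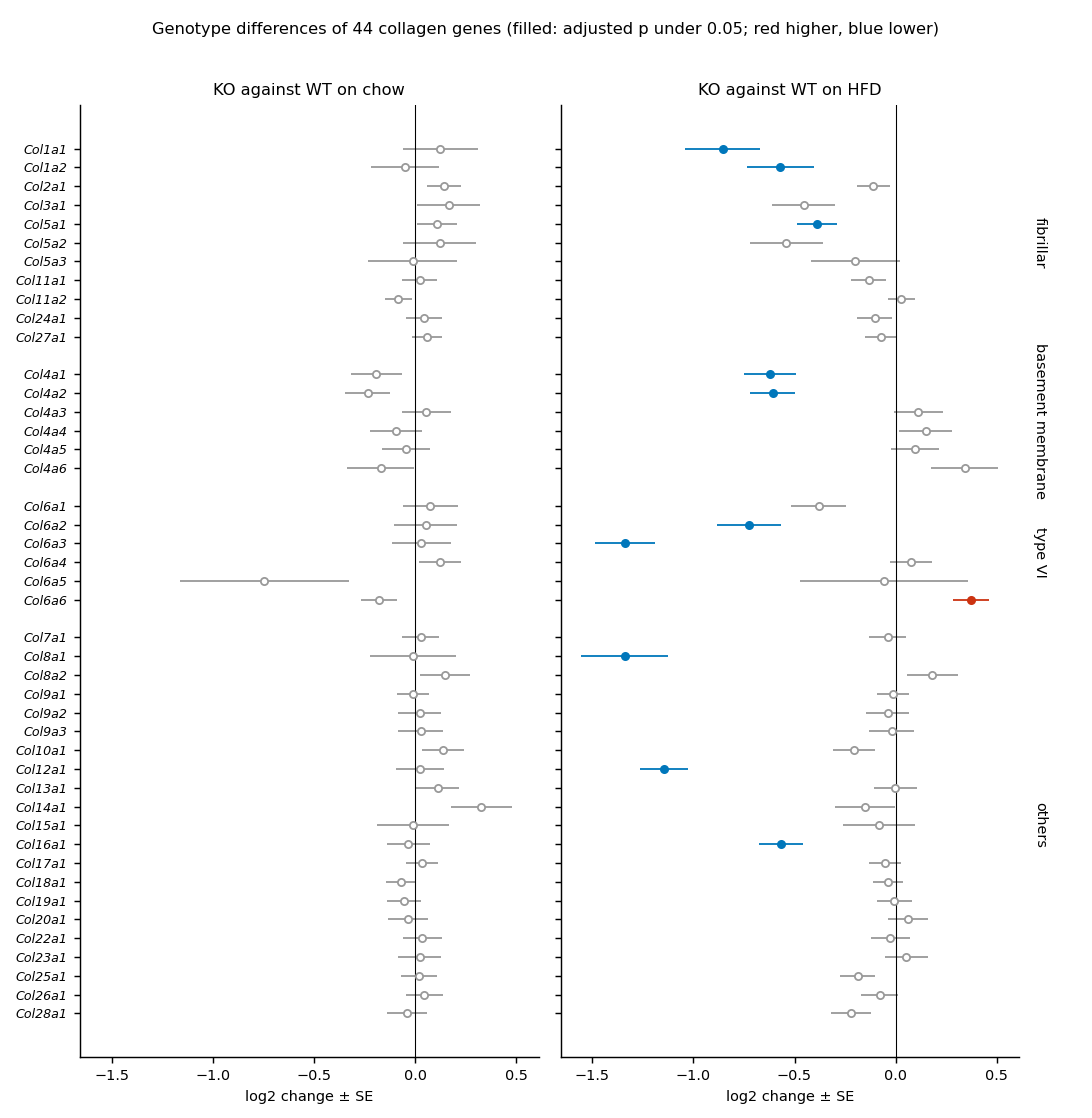
Log2 change of KO against WT for each of the 44 collagen genes by class, on chow (left) and on HFD (right), n = 3 arrays a group; points are differences of group means, bars are 1 SE, and filled points passed an adjusted p under 0.05 (blue lower, red higher in KO). No gene is filled on chow, while on HFD 10 genes are filled blue, from Col5a1 at -0.39 to Col8a1 at -1.34, and Col6a6 is filled red at 0.37.

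On HFD, 10 collagen genes were lower in KO than in WT and 1 was higher. The share lower was 22.7% of the 44 genes, where 6.85% of all genes were lower, and the 1 higher gene was 2.27%, where 6.65% of all genes were higher. The 10 lower genes were Col1a1, Col1a2 and Col5a1 (fibrillar), Col4a1 and Col4a2 (basement membrane), Col6a2 and Col6a3 (type VI), and Col8a1, Col12a1 and Col16a1 (others), and the higher gene was Col6a6. Their adjusted p ran from 0.00316 to 0.045. By arrays, the genotypes were fully separate with KO lower for 15 collagen genes (34.1%, against 13.5% of all genes). The median change was -0.08 over the 44 collagen genes and 0.02 over all genes tested; most of the 44 lay near 0, and the changes sat in a minority of chains. Among the 15 genes with a mean of 8 or more, all had a change below 0 and 7 were lower (46.7%, against 9.51% of all genes with such a mean), with a median of -0.46. Of the 29 dimmer genes, 3 were lower (10.3%, against 6.85% of all genes of any mean) and Col6a6 was higher (3.45%, against 6.65%). Col6a6, at a mean of 7.96, lay just under the limit of 8, so the lack of brighter genes above 0 depends on that limit. The limit was chosen after the values were seen, and the mean includes the compared arrays. In whole tissue, fewer cells of a type and less RNA per cell cannot be told apart.

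Of the 11 fibrillar chains, 3 were lower in KO on HFD (27.3%, against 6.85% of all genes) and none was higher (against 6.65%). Col1a1 read 11.002, 10.95 and 10.78 on the WT and 11.13, 10.84 and 11.14 on the KO arrays of chow-fed mice, and 11.38, 12.23 and 11.61 on the WT and 10.78, 11.08 and 10.80 on the KO arrays of the fat-fed. The 3 KO arrays on HFD lay within or just under the range of the chow arrays, and all 3 WT arrays on HFD lay above every other array. The change between genotypes on HFD was -0.86 ± 0.18 (adjusted p = 0.0138), a 1.81-fold lower level in KO. Col1a2 read 11.60, 11.48 and 11.38 on the WT and 11.48, 11.22 and 11.61 on the KO arrays of chow-fed mice, and 11.71, 12.40 and 11.71 on the WT and 11.35, 11.44 and 11.32 on the KO arrays of the fat-fed. WT replicate 2 stood above the other WT arrays on HFD, which nearly coincided, and the change of -0.57 ± 0.17 had the highest adjusted p of the 10 (0.045). Without that array the change was -0.34 (adjusted p = 0.101), and the call was lost in 12 of 19 alternative settings. Col5a1 read 8.76, 8.66 and 8.66 on the WT and 8.86, 8.86 and 8.68 on the KO arrays of chow-fed mice, and 9.49, 9.61 and 9.48 on the WT and 8.92, 9.31 and 9.17 on the KO arrays of the fat-fed. Col5a1 encodes a chain of type V collagen, which seeds fibrils and limits their width; it was lower in KO by 0.39 ± 0.10 (adjusted p = 0.0247), with KO arrays that lay between those of WT on HFD and all chow arrays.

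The fibrillar chains next in rank did not pass, though their arrays were separate. Col3a1, the chain of type III collagen, which is laid down with type I in stretchable tissue, gave -0.46 ± 0.16 (adjusted p = 0.0793), with KO arrays from 11.92 to 12.24 and WT arrays from 12.32 to 12.91. Col5a2 gave -0.54 ± 0.18 (adjusted p = 0.0713), with KO arrays from 9.14 to 9.64 and WT arrays from 9.78 to 10.33. Col5a3, a type V chain, overlapped between genotypes (-0.20 ± 0.22, adjusted p = 0.641). The cartilage chains Col2a1, Col11a1 and Col11a2 and the minor chains Col24a1 and Col27a1 lay between -0.13 and 0.03.

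The 6 basement membrane chains split by gene pair. Col4a1 and Col4a2 were lower in KO on HFD (33.3%, against 6.85% of all genes), and the other 4 did not pass. Col4a1 read 10.30, 10.21 and 10.23 on the WT and 10.15, 10.21 and 9.80 on the KO arrays of chow-fed mice, and 11.02, 10.82 and 10.84 on the WT and 10.01, 10.41 and 10.40 on the KO arrays of the fat-fed. Col4a2 read 10.48, 10.36 and 10.42 on the WT and 10.30, 10.31 and 9.94 on the KO arrays of chow-fed mice, and 11.16, 10.99 and 11.08 on the WT and 10.29, 10.58 and 10.54 on the KO arrays of the fat-fed. For both genes the WT arrays on HFD were the highest of all, and the KO arrays on HFD reached or only slightly exceeded the chow range. The changes were -0.62 ± 0.13 (adjusted p = 0.0115) and -0.61 ± 0.11 (adjusted p = 0.00821). Their RefSeq spans overlap by 85 bases at the ends that face each other, and the sources used here do not say whether any probe lies there. Col4a3, Col4a4, Col4a5 and Col4a6, chains of type IV molecules found in kidney, lung and other specialised membranes, gave 0.11, 0.15, 0.09 and 0.34. Col4a6 was separate between genotypes on HFD with KO higher, from 6.31 to 6.66 against 5.97 to 6.30 (0.34 ± 0.17, adjusted p = 0.219).

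Type VI held both the lowest adjusted p, shared with Col12a1, and the only gene that was higher. Col6a3 read 8.89, 8.70 and 8.59 on the WT and 8.81, 8.88 and 8.58 on the KO arrays of chow-fed mice, and 10.10, 10.56 and 10.29 on the WT and 8.85, 9.25 and 8.84 on the KO arrays of the fat-fed. Col6a3 encodes the longest chain of the main type VI molecule, whose C-terminal fragment, endotrophin, is a known adipose signal. Every WT array on HFD lay above 10, and none of the 9 others exceeded 9.25. The change was -1.34 ± 0.15 (adjusted p = 0.00316), a 2.53-fold lower level in KO. Col6a2 read 10.06, 9.90 and 9.79 on the WT and 9.97, 10.22 and 9.72 on the KO arrays of chow-fed mice, and 10.98, 11.21 and 11.13 on the WT and 10.04, 10.59 and 10.51 on the KO arrays of the fat-fed. Col6a2, its partner chain, was lower by 0.72 ± 0.16 (adjusted p = 0.0138). Col6a1, the third partner, did not pass (-0.38 ± 0.14, adjusted p = 0.0897), with KO arrays from 10.84 to 11.31 below WT arrays from 11.41 to 11.60. In KO on HFD, replicate 1 was the lowest array for both partners.

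Col6a6 read 8.21, 8.12 and 8.07 on the WT and 7.998, 7.78 and 8.09 on the KO arrays of chow-fed mice, and 7.68, 7.67 and 7.71 on the WT and 8.19, 7.96 and 8.02 on the KO arrays of the fat-fed. Col6a6 encodes an alternative chain that can take the place of Col6a3 in the type VI trimer. Its 3 WT arrays on HFD were the lowest of the 12, while the KO arrays on HFD lay among the chow arrays. It was higher in KO by 0.37 ± 0.09 (adjusted p = 0.0206), and its second row also read higher, by 0.495. Col6a4 (0.07 ± 0.10) and Col6a5 (-0.06 ± 0.42), also alternative chains, did not pass.

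**Figure D2:**
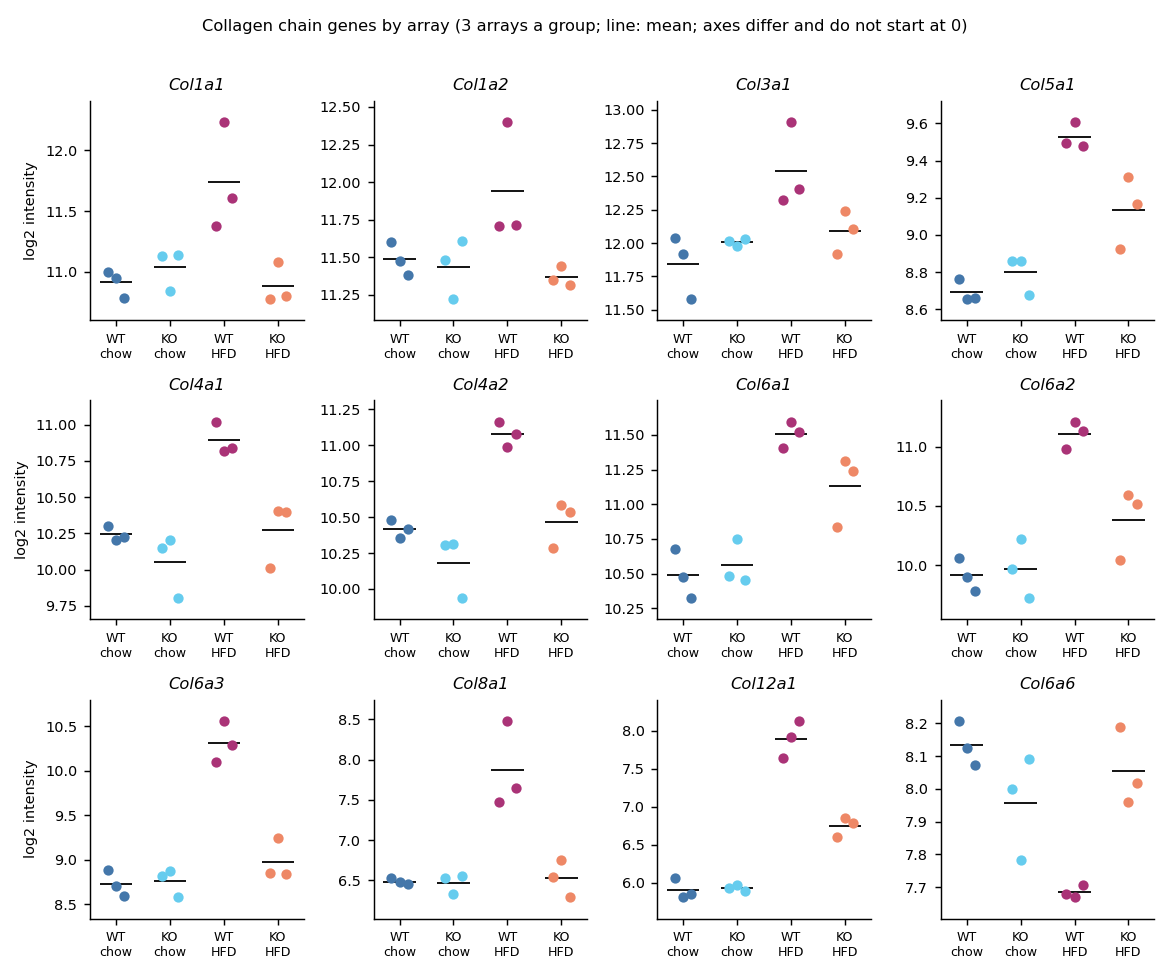
Log2 intensity of 12 collagen genes on each of the 12 arrays, by group; points are arrays, lines are means of 3, and each panel has its own axis, which does not start at 0. In the panels of Col6a3, Col12a1 and Col8a1 the 3 WT arrays on HFD stand above all KO arrays on HFD, and in the panel of Col6a6 they are the lowest, between 7.67 and 7.71.

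Of the 21 other chains, 3 were lower in KO on HFD (14.3%, against 6.85% of all genes) and none was higher (against 6.65%). Col12a1 read 6.06, 5.81 and 5.85 on the WT and 5.93, 5.97 and 5.89 on the KO arrays of chow-fed mice, and 7.64, 7.92 and 8.13 on the WT and 6.61, 6.85 and 6.79 on the KO arrays of the fat-fed. Col12a1 encodes type XII collagen, which sits on the surface of type I fibrils. Its KO arrays on HFD stood between the chow arrays, all at or under 6.06, and the WT arrays on HFD, all at or over 7.64; the change was -1.15 ± 0.12 (adjusted p = 0.00316), 2.21-fold. Col8a1 read 6.53, 6.48 and 6.45 on the WT and 6.53, 6.34 and 6.55 on the KO arrays of chow-fed mice, and 7.48, 8.48 and 7.65 on the WT and 6.54, 6.76 and 6.29 on the KO arrays of the fat-fed. Col8a1, a short-chain network collagen known from vessel walls, was lower by 1.34 ± 0.21 (adjusted p = 0.00593), with KO arrays on HFD inside or near the chow range. WT replicate 2 was the highest array here too, at 8.48, and without it the change was still past the threshold.

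Col16a1 read 7.40, 7.41 and 7.27 on the WT and 7.33, 7.17 and 7.47 on the KO arrays of chow-fed mice, and 7.67, 7.93 and 7.84 on the WT and 7.13, 7.44 and 7.17 on the KO arrays of the fat-fed. Col16a1, another fibril-associated chain, was lower in KO on HFD by 0.57 ± 0.11 (adjusted p = 0.00883). The remaining 18 lay between -0.22 for Col28a1 and 0.18 for Col8a2, the partner of Col8a1. The multiplexins of the vascular and adipocyte basement membrane, Col15a1 (-0.08 ± 0.18) and Col18a1 (-0.04 ± 0.08), overlapped between genotypes; for Col18a1 the 95% confidence interval was -0.20 to 0.13.

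The calls in this comparison depended on which arrays set the error. When only the 6 arrays on HFD entered the fit, the changes were equal in size but 0 collagen genes passed, with a lowest adjusted p of 0.054. Only 4 of all genes passed in that fit. Leaving out 1 array at a time left 6 to 12 collagen genes called: 6 when KO HFD replicate 1 was dropped, and 7 when KO HFD replicate 3, WT HFD replicate 2 or WT HFD replicate 3 was. In those 4 fits 4.53% to 6.32% of all genes passed. Col4a1, Col4a2, Col6a3, Col8a1, Col12a1 and Col16a1 kept their calls without any single array.

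The comparison of HFD with chow within WT asks what the diet itself does to the same chains. It shares the WT HFD arrays with the genotype comparison on HFD, so the values below stand side by side with it and are no separate support. In WT, 14 collagen genes were higher on HFD (31.8%, against 11.8% of all genes) and 4 were lower (9.09%, against 12.3% of all genes). By arrays, 20 of the 44 were higher on every HFD array than on every chow array of WT (45.5%, against 17.3% of all genes). The median change was 0.03 over the 44 and -0.03 over all genes. Among the 15 collagen genes with a mean of 8 or more, 11 were higher on HFD (73.3%, against 19% of all genes with such a mean), with a median of 0.66. Col6a6, which fell, lay just under that limit at a mean of 7.96, and the mean includes the compared arrays.

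The largest rise was that of Col12a1, by 1.99 ± 0.12 (adjusted p = 5.98e-05, 3.97-fold). Next came Col6a3, by 1.59 ± 0.15 (adjusted p = 0.000369), and Col8a1, by 1.38 ± 0.21 (adjusted p = 0.00182). The other chains of the main type VI molecule rose too, Col6a2 by 1.19 ± 0.16 (adjusted p = 0.00102) and Col6a1 by 1.02 ± 0.14 (adjusted p = 0.00105). So in WT the 3 chains of the main type VI molecule rose together, while Col6a6 fell by 0.45 ± 0.09 (adjusted p = 0.0048), also in its second row (-0.51), and Col6a4 (-0.11 ± 0.10) and Col6a5 (-0.79 ± 0.42) did not pass. Of the 11 fibrillar chains 4 rose (36.4%, against 11.8% of all genes). They were Col5a2 by 1.23 ± 0.18, Col5a1 by 0.83 ± 0.10, Col1a1 by 0.83 ± 0.18 and Col3a1 by 0.70 ± 0.16, at adjusted p of 0.000666 to 0.0086. Col1a2, whose product pairs with that of Col1a1 in type I collagen, did not pass (0.45 ± 0.17, adjusted p = 0.0736), although each HFD array lay above each chow array of WT. Col5a3 did not pass either (0.38 ± 0.22, adjusted p = 0.255).

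The basement membrane chains again split. Col4a1 and Col4a2 rose by 0.65 ± 0.13 and 0.66 ± 0.11 (adjusted p = 0.00468 and 0.00261). Col4a4 fell by 0.65 ± 0.13 (adjusted p = 0.00507), from arrays between 6.62 and 6.91 on chow to arrays between 5.81 and 6.24 on HFD. Col4a6 fell by 0.63 ± 0.17 (adjusted p = 0.0177), a call that did not survive leaving out WT HFD replicate 3 (adjusted p = 0.0752) or WT chow replicate 2 (adjusted p = 0.0671). Col4a3 and Col4a5, which lie beside them on the chromosome, had changes of -0.27 and -0.22 and did not pass. Among the others, Col14a1 rose by 0.65 ± 0.15, Col16a1 by 0.45 ± 0.11 and Col18a1 by 0.40 ± 0.08, at adjusted p of 0.00395 to 0.011. Col8a2 fell by 0.50 ± 0.12 (adjusted p = 0.0147), against the direction of its partner Col8a1; leaving out WT chow replicate 2 took its adjusted p to 0.0504. Col15a1 did not pass (0.38 ± 0.18, adjusted p = 0.149).

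**Figure D3:**
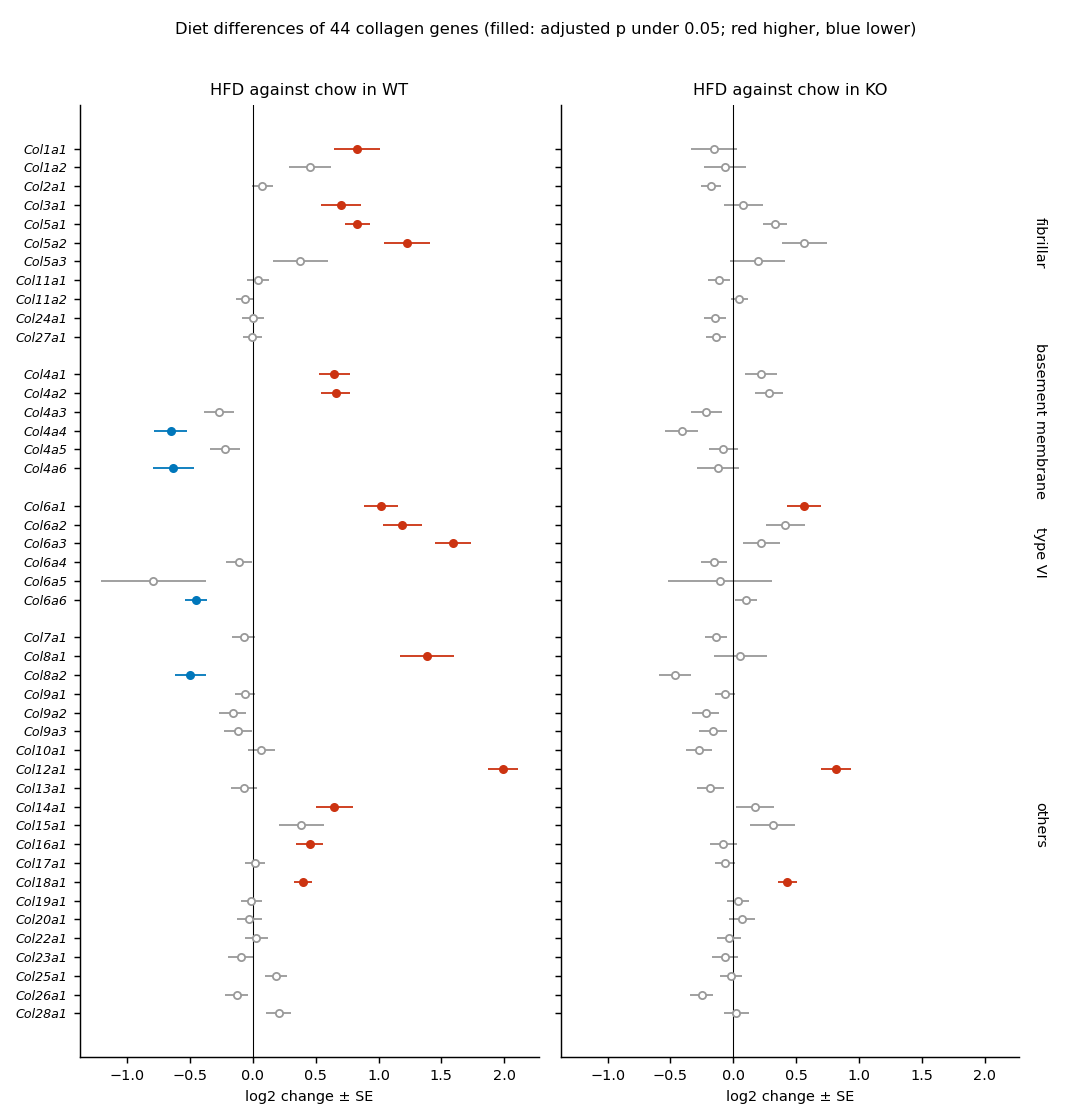
Log2 change of HFD against chow for each of the 44 collagen genes by class, in WT (left) and in KO (right), n = 3 arrays a group; points are differences of group means, bars are 1 SE, and filled points passed an adjusted p under 0.05 (red higher, blue lower on HFD). In WT 14 genes are filled red, up to Col12a1 at 1.99, and 4 blue; in KO only Col12a1 (0.82), Col6a1 (0.57) and Col18a1 (0.43) are filled.

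In KO the diet raised 3 collagen genes and lowered none (6.82% and 0%, against 2.8% and 3.54% of all genes). Col12a1 rose by 0.82 ± 0.12 (adjusted p = 0.0092), Col6a1 by 0.57 ± 0.14 (adjusted p = 0.0352) and Col18a1 by 0.43 ± 0.08 (adjusted p = 0.0156). Col18a1, the parent of the fragment endostatin, read 8.66, 8.73 and 8.61 on chow and 9.15, 9.05 and 8.99 on HFD in WT, and 8.52, 8.59 and 8.68 on chow and 8.97, 9.13 and 8.98 on HFD in KO. Its HFD arrays were thus above all chow arrays in both genotypes. The next in rank in KO were Col8a2 (-0.46 ± 0.12, adjusted p = 0.0507) and Col5a1 (0.33 ± 0.10, adjusted p = 0.0685). Col6a3 (0.22 ± 0.15), Col8a1 (0.06 ± 0.21), Col1a1 (-0.15 ± 0.18), Col1a2 (-0.07 ± 0.17) and Col3a1 (0.08 ± 0.16) did not pass. Col5a2 had a change of 0.57 ± 0.18 (adjusted p = 0.0871) with HFD arrays above all chow arrays, and Col5a3 one of 0.19 ± 0.22. Of the type IV chains, Col4a1 gave 0.22 ± 0.13, Col4a2 0.29 ± 0.11, Col4a3 -0.21 ± 0.12, Col4a4 -0.41 ± 0.13 (adjusted p = 0.0856), Col4a5 -0.08 ± 0.12 and Col4a6 -0.12 ± 0.17. The remaining type VI chains gave 0.41 ± 0.16 for Col6a2, -0.15 ± 0.10 for Col6a4, -0.11 ± 0.42 for Col6a5 and 0.10 ± 0.09 for Col6a6, and Col15a1 gave 0.31 ± 0.18; none of these passed. These KO calls rested on few arrays: 0 collagen genes passed when KO HFD replicate 3 was dropped (0.311% of all genes). Without KO HFD replicate 2 or KO chow replicate 1 the count was 1 (1.15% and 0.702% of all genes). Without KO HFD replicate 1 it was 6 (13.6%, against 5.11% of all genes). The losses thus ran across the whole array.

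Whether the genotype difference on HFD differs from that on chow is asked by the interaction of genotype and diet. No collagen gene passed it: limma called 0 of 44 at an adjusted p under 0.05, 15 had an unadjusted p under 0.05 (34.1%, against 17.5% of all genes), and 1 gene, or 0.00502%, passed among all genes. The lowest adjusted p was 0.0552, for Col6a3 (-1.37 ± 0.21) and Col12a1 (-1.17 ± 0.17), followed by Col8a1 (-1.33 ± 0.30, adjusted p = 0.089), Col6a6 (0.55 ± 0.13, adjusted p = 0.0896) and Col1a1 (-0.98 ± 0.26, adjusted p = 0.116). At the other end, Col18a1 had an interaction of 0.03 ± 0.11, with a 95% confidence interval of -0.20 to 0.26. Without WT HFD replicate 1 the interaction was called for 7 collagen genes, Col12a1, Col16a1, Col1a1, Col6a2, Col6a3, Col6a6 and Col8a1 (15.9%), and for 10.3% of all genes, so the calls rose across the whole array. With dim genes left out it was called for Col12a1 and Col6a3 (5.26% of 38, against 0.616% of all genes kept). The gap between the diets therefore did not pass with all 12 arrays over all genes, and the 10 lower genes on HFD against 0 on chow are not by themselves a tested difference.

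The genes raised by HFD in WT and those lower in KO on HFD share 9 members, which is 64.3% of the 14 raised and 90% of the 10 lower; both counts use the same WT HFD arrays. The one gene of the 10 outside the 14 was Col1a2. Raised in WT without a call between genotypes were Col3a1, Col5a2, Col6a1, Col14a1 and Col18a1. Over the 14 raised genes, the median distance from the WT chow mean was 0.79, 1.08 and 0.74 on the WT HFD arrays and 0.13, 0.49 and 0.28 on the KO HFD arrays, and lay between -0.07 and 0.12 on all chow arrays. The 14 were picked for being higher on these WT HFD arrays than on WT chow. High WT HFD values and smaller distances on the other arrays are thus set in part by that choice.

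The chains did not vary independently between arrays of a group. On HFD, KO replicate 2 was the highest KO array for all 10 genes that were lower in KO, and KO replicate 1 the lowest for 7 of them. In WT on HFD, replicate 2 was the highest for 7 of the 10 and replicate 1 the lowest for 7. The 10 genes are thus not 10 separate observations of a condition. The median SD of the 10 genes was 0.09 in WT on chow, 0.16 in KO on chow and 0.18 in each HFD group.

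Marker lists of several cell types were read beside these changes. The 12 macrophage markers lay at a mean log2 level of 10.09 to 11.48 on the WT HFD arrays and of 8.91 to 9.07 on the KO HFD arrays. On chow they lay at 8.66 to 9.13 in WT and 8.38 to 8.70 in KO. Of them, 11 were higher on HFD in WT (91.7%, against 11.8% of all genes) and 10 were lower in KO on HFD (83.3%, against 6.85%), with a median of -1.56; Cd68, a macrophage lysosomal protein, was lower by 1.89 ± 0.30. Of 10 measured markers of stromal progenitors, the fibroblast-like cells that make fibrillar collagen, 4 were higher on HFD in WT (40%, against 11.8% of all genes). These were Pdgfrb, Thy1, Lum and Mfap5, and Lum is also counted below among the proteins that bind collagen. In KO on HFD, 3 of those, without Thy1, were lower (30%, against 6.85%). The median change of the 10 stromal markers between genotypes on HFD was 0.00. Their mean level was 9.87 to 10.30 in WT on HFD and 9.77 to 10.01 in KO on HFD, so the groups overlapped. Of 10 adipocyte markers, 5 were higher in KO on HFD (50%, against 6.65% of all genes) and 1, Lep, was lower (10%, against 6.85%). On HFD in WT, 5 were lower (50%, against 12.3% of all genes) and 1 was higher (10%, against 11.8%). The mean level of the adipocyte markers was 11.94 to 12.41 in WT on HFD and 12.50 to 12.57 in KO on HFD. The list thus gave a mean of 11.94 or more on every array of the labelled fat.

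Of 10 endothelial markers, 1 was higher in KO on HFD (10%, against 6.65% of all genes). Of 10 smooth muscle and pericyte markers, 1 was lower there (10%, against 6.85%). It was Cspg4, which is also counted below among the collagen receptors. None of the Schwann cell, mesothelial, cartilage and bone, skeletal muscle or male tract markers passed between genotypes on HFD. WT HFD replicate 2 had the highest macrophage level, the highest stromal level and the lowest adipocyte level of its group, and was also highest for most of the collagen genes that were lower in KO. The part of any of these cell types in the collagen changes was not tested.

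**Figure D4:**
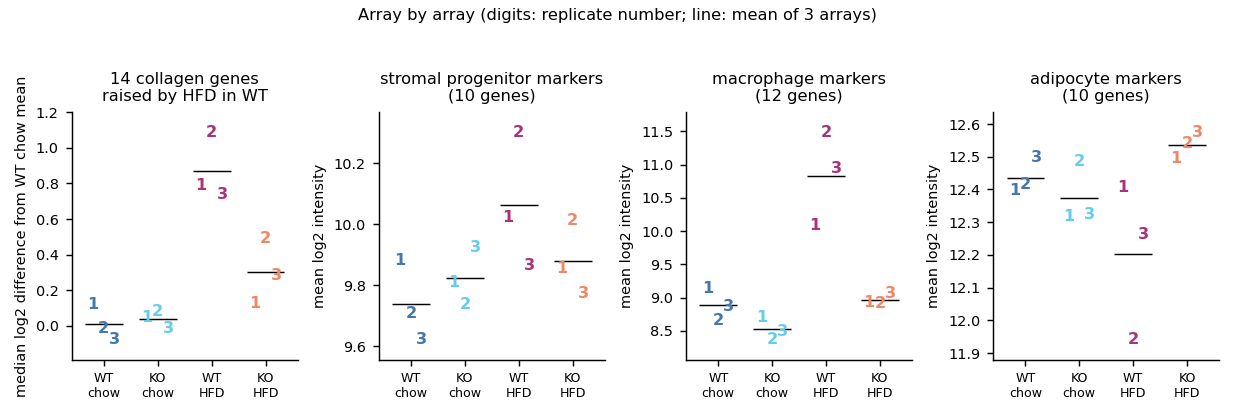
Each of the 12 arrays by group, drawn as its replicate number with a line at the mean of 3: the median log2 distance of 14 diet-raised collagen genes from their WT chow mean, and the mean log2 intensity of stromal progenitor, macrophage and adipocyte markers, on axes that do not start at 0. WT HFD replicate 2 is highest in the collagen (1.08), stromal (10.30) and macrophage (11.48) panels and lowest in the adipocyte panel (11.94). The 14 genes were picked by their rise on the WT HFD arrays over WT chow, so the contrast in the collagen panel is set in part by that choice.

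The enzymes and chaperones that fold, modify, cut and crosslink collagen were read beside the chains. Of 33 genes listed for collagen biosynthesis and processing, 30 were measured. In WT, 15 of the 30 were higher on HFD (50%, against 11.8% of all genes) and none was lower (against 12.3%), with a median of 0.40. The procollagen C-proteinase enhancer Pcolce2 rose by 1.37 ± 0.12, Creb3l1, a transcription factor for procollagen genes, by 1.11 ± 0.18, and Serpinh1, the collagen chaperone HSP47, by 0.86 ± 0.15. Colgalt1, which adds galactose to collagen, rose by 0.80 ± 0.10, and the lysyl hydroxylases Plod1 and Plod3, which prepare the lysines that carry crosslinks, by 0.56 ± 0.09 and 0.53 ± 0.09. P3h1, which hydroxylates proline, rose by 0.61 ± 0.11 and Tmem38b, an ion channel of the endoplasmic reticulum needed for collagen maturation, by 0.51 ± 0.09. The adjusted p of these 8 was 0.000369 to 0.0033.

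Between genotypes on HFD, 8 of the 30 were lower in KO (26.7%, against 6.85% of all genes) and 1 was higher (3.33%, against 6.65%), with a median of -0.20. Colgalt1 read 9.63, 9.60 and 9.69 on the WT and 9.71, 9.74 and 9.72 on the KO arrays of chow-fed mice, and 10.18, 10.58 and 10.56 on the WT and 9.68, 9.89 and 9.94 on the KO arrays of the fat-fed. All WT arrays on HFD lay above all other arrays, and the change was -0.60 ± 0.10 (adjusted p = 0.00705). Also lower were Tmem38b (-0.43 ± 0.09), Plod1 (-0.42 ± 0.09), Pcolce2 (-0.55 ± 0.12), Plod2, which hydroxylates telopeptide lysines (-0.53 ± 0.14), Bmp1, the procollagen C-proteinase (-0.35 ± 0.10), and Pcolce (-0.62 ± 0.18). Lox, which oxidises lysines to start crosslinking, was the last to pass, at -0.56 ± 0.17 (adjusted p = 0.0496), and was named in addition to the 8 of lowest p. The higher gene was Colgalt2 (0.31 ± 0.09, adjusted p = 0.0351). Serpinh1 (-0.33 ± 0.15) and Creb3l1 (-0.27 ± 0.18) did not pass, and no gene of the list passed on chow.

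**Figure D5:**
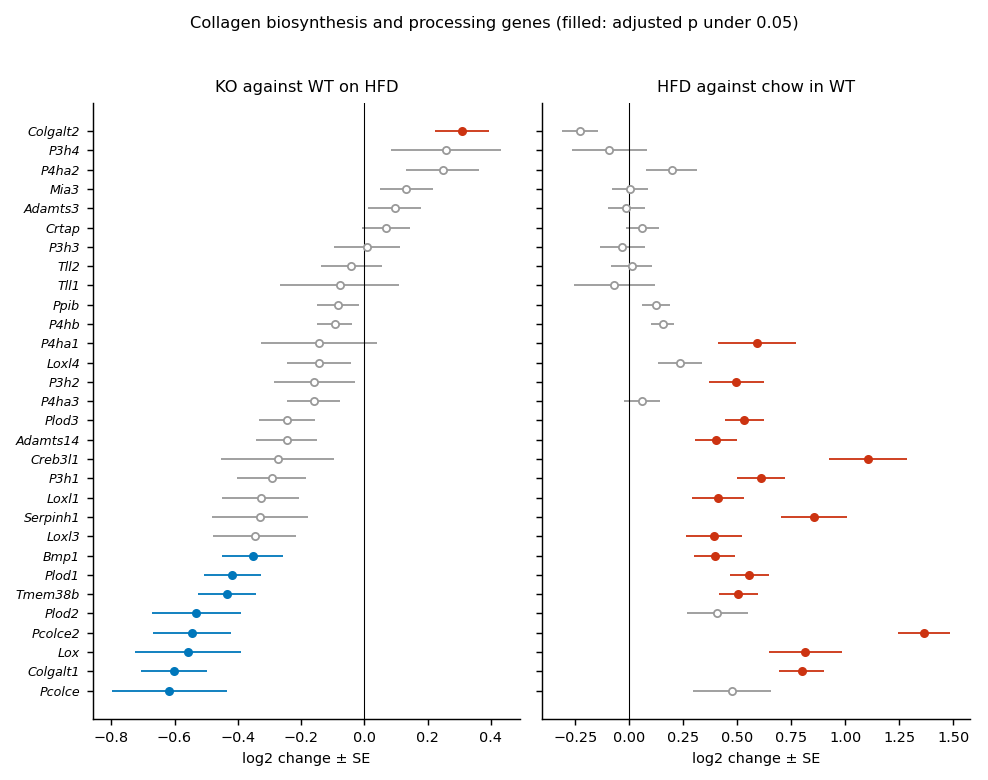
Log2 change of the 30 measured genes of collagen biosynthesis and processing, for KO against WT on HFD (left) and HFD against chow in WT (right), n = 3 arrays a group; points are differences of group means, bars are 1 SE, and filled points passed an adjusted p under 0.05. The left panel has 8 filled blue points (lower in KO) and 1 red (Colgalt2, 0.31), and the right panel 15 red points, the farthest being Pcolce2 at 1.37; both comparisons use the WT HFD arrays.

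Of 12 measured collagen receptors, 4 were higher on HFD in WT (33.3%, against 11.8% of all genes) and 3 were lower in KO on HFD (25%, against 6.85%). Mrc2 read 7.003, 6.87 and 7.13 on the WT and 7.05, 6.98 and 7.04 on the KO arrays of chow-fed mice, and 8.38, 9.52 and 9.56 on the WT and 7.03, 7.20 and 7.30 on the KO arrays of the fat-fed. Mrc2, an endocytic receptor that carries collagen to the lysosome, rose in WT on HFD by 2.15 ± 0.25 and was lower in KO on HFD by 1.98 ± 0.25 (adjusted p = 0.0039), with KO arrays from 7.03 to 7.30 and chow arrays from 6.87 to 7.14. Lair1, an inhibitory collagen receptor of leukocytes, rose by 1.87 ± 0.41 and was lower in KO by 2.28 ± 0.41 (adjusted p = 0.008), beside the macrophage markers given above. The third lower gene was Cspg4, a type VI collagen receptor of pericytes (-0.35 ± 0.10, adjusted p = 0.0499). The integrin chains Itgb1 and Itga11 rose on HFD in WT by 0.33 ± 0.06 and 0.54 ± 0.17.

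Of 18 matrix proteins that bind collagen, 10 were higher (55.6%, against 11.8% of all genes) and 1 was lower (5.56%, against 12.3%) on HFD in WT, and 6 were lower in KO on HFD (33.3%, against 6.85%). The 6 were Lum (-1.28 ± 0.24), Bgn (-0.83 ± 0.11), Fn1 (-0.76 ± 0.15), Tnxb (-0.59 ± 0.12), Hspg2 (-0.44 ± 0.09) and Sparc (-0.25 ± 0.07). Lum and Bgn are small proteoglycans that sit on fibrils, and Hspg2 is perlecan of the basement membrane. Thbs1 and Thbs2, thrombospondins, rose on HFD in both genotypes: by 2.32 ± 0.32 and 1.41 ± 0.27 in WT and by 2.37 ± 0.32 and 1.71 ± 0.27 in KO.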

How the data were processed

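RNA of 12 white adipose tissue samples was hybridised to whole-transcript arrays after biotin labelling, per the labels' protocols. The authors deposited 1 log2 value per probe set and array in a single table of 34760 rows. Per the submitters' processing notes they used affy; the sources used here do not give its settings or the normalization. The base 2 was inferred from the values, 2.09 to 14.25, and the method that scaled the arrays to each other stays unknown.

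Of the rows, 21640 carry 1 gene symbol in the platform annotation, for 19937 genes; a gene with several rows was read from the one with the highest mean. All 44 collagen genes matched the RefSeq table. With limma 3.58.1 (R 4.3.3), lmFit and eBayes fitted 4 group means to all 12 arrays, with 8 residual degrees of freedom. Tests were two-sided, with a Benjamini-Hochberg adjustment over all genes at 0.05 within each of 5 comparisons. No dim gene was left out. The code was tested on simulated data. The number of arrays limits the precision.

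In the 4 comparisons of groups the main chains of adipose matrix are always named (Col1a1, Col1a2, Col3a1, all chains of types IV, V and VI, Col15a1 and Col18a1), with every collagen gene that passed or, where under 5 passed, the 5 of lowest p; for the interaction these 5 and Col18a1 are named, Col18a1 after its values were seen. Of the biosynthesis and receptor lists, up to 8 genes of lowest p are named per comparison. The collagen genes, classes, pathway lists and marker lists were chosen with earlier results of these data known. The lists are biosynthesis and processing, receptors, collagen-binding matrix proteins, and markers of stromal progenitors, adipocytes, macrophages, endothelium, smooth muscle and pericytes, Schwann cells, mesothelium, cartilage and bone, skeletal muscle and the male tract. Alternatives were a fit of only the compared groups, the mean of a gene's rows, a filter on dim genes, quantile normalization, array weights, a trended robust prior, a replicate block and each array left out. A planned description of protein sequences was not made.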

Additional observations from a re-analysis of the deposited data

How the results depend on the processing

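No call of a collagen gene changed direction under any of the 19 alternatives. On chow 0 collagen genes passed between genotypes in each of them. Between genotypes on HFD, 11 collagen genes passed. The count was 0 when the fit held only the 2 groups compared, where 4 genes passed among all genes. It was 18 with array weights (40.9%, against 38.4% of all genes). With 1 array left out it was 6 to 12 (4.53% to 19.7% of all genes). In WT, 18 collagen genes passed between diets. The count was 24 with array weights (54.5%, against 50.1% of all genes), where the share was close to that of all genes. With 1 array left out it was 16 to 20 (15.4% to 26.5% of all genes). In KO, 3 passed between diets, 7 with array weights (15.9%, against 10.7% of all genes), and 0 to 6 with 1 array left out (0.311% to 7.57% of all genes). For the interaction 0 passed, and 2 with dim genes left out (5.26%, against 0.616% of all genes kept). It was called for 10 with array weights (22.7%, against 14.1% of all genes), and for 0 to 7 with 1 array left out (0% to 10.3% of all genes). The array weights did not converge and gave WT HFD replicate 3 a weight of 19.993. In the weighted comparisons that use the WT HFD arrays, the mean of that group thus rests mainly on replicate 3. The comparison of diets in KO does not contrast that group, and the KO arrays had weights of 0.722 to 1.455. The calls of Col1a2, Col6a6, Col5a1, Col6a2 and Col1a1 between genotypes on HFD were lost in 12, 5, 5, 4 and 3 of the 19 alternatives. The labels' replicate numbers showed no clear pairing of the samples. Of 18 pairs of arrays with the same number, 4 had deviations from their group means that correlated over 0.1. Of 12 arrays, 2 correlated best with their own number. With 3 arrays a group, a weak pairing could be missed. With the replicate block, 10 collagen genes passed between genotypes on HFD, 18 between diets in WT, 3 between diets in KO and 0 in the interaction and on chow. The table has no background, so how far dim chains rise above it is unknown.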
